A study of Mus musculus with 6 samples.

Results

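The 10 genes described here encode parts of the meiotic chromosome axis, the synaptonemal complex, the meiotic cohesin and the recombination machinery, together with the meiotic entry regulator Stra8. They were chosen by name, with earlier results of these data known (Sycp1, Sycp2, Sycp3, Hormad1, Stag3, Smc1b, Rec8, Dmc1, Rec114 and Stra8). All 10 had an entry among the 19571 genes of the table. RNA came from mouse E14 embryonic stem cells, a line grown without feeder cells, in serum with LIF. The groups are Dot1l knock-out (KO) cells, genotype Dot1L-/-, edited with CRISPR/Cas9 (3 samples), and wild-type (WT) cells (3 samples); each sample carries the label day 14. Whether the KO samples came from 1 clone or several is not stated in the labels, nor is whether replicates were separate cultures, so the p-values measure only the spread between these samples. DOT1L is the enzyme that methylates lysine 79 of histone H3, and the question is how loss of it changes the transcriptome.

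In meiosis, homologous chromosomes pair, exchange strands at programmed DNA breaks and are held side by side by the synaptonemal complex. The axis proteins SYCP2, SYCP3 and HORMAD1 lie along each chromosome on a cohesin core that contains the meiotic subunits REC8, STAG3 and SMC1B, and SYCP1 zips the homologous axes together. REC114 is needed for the breaks, DMC1 is the meiotic recombinase that pairs the broken strand with its homologue, and STRA8 drives germ cells into meiosis. Most of these genes are known as germline genes that are held silent or low in somatic tissues by DNA methylation and by the polycomb complex PRC1.6, which binds through E2F6 and the MGA and MAX pair.

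The values are those of the authors' own DESeq2 comparison of the genotypes. For each gene there is a mean normalized count taken over all libraries, a log2 fold change and its standard error (SE), and a p-value adjusted over all genes. A gene counts as higher or lower at an adjusted p under 0.05. Values of single libraries were not analysed here, so the level in each group was computed from the mean and the fold change, for equal group sizes, and is called the implied level; the overlap of single samples and the depth of each library are unknown. Which genotype a positive sign stands for is not written in the table. Positive was taken to mean Dot1l KO above WT, since Dot1l is known from earlier publications to hold down the retroviral element MERVL, and MERVL-int is at 1.96 ± 0.38 (SE, log2 fold change, adjusted p = 0.000107) by the authors' deposited table. With the opposite sign, each direction given below would turn round. The RNA level of Dot1l itself, -0.16 ± 0.25 (log2 fold change, adjusted p = 0.845) by the authors' deposited table, does not settle it. Of 8 embryonic stem cell markers, among them Pou5f1, Sox2 and Nanog, 0 were called (DESeq2; at an unadjusted p under 0.05, 1 was higher), with implied levels that sum to 185675 normalized counts in Dot1l KO and 181433 in WT.

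Sycp2, Rec114 and Hormad1 rose in Dot1l KO, and no member fell. Sycp2 was 8.09-fold higher, Rec114 6.23-fold higher and Hormad1 2.13-fold higher. Hormad1 lost its call under Bonferroni adjustment and with Wald statistics scaled by their interquartile range, which left 2 members called. The other 7 members did not pass the threshold; at an unadjusted p under 0.05, Stra8 and Smc1b were also higher and 0 members were lower, where the background is 10.6% higher and 5.55% lower. Thus 3 of 10 members were called higher, where the background over all genes tested is 5.34% higher and 1.25% lower. The members were chosen with earlier results of these data known, so this count beside the background is a description and no test. Among the 9453 genes with a mean count between those of the lowest and the highest member, 1.99% rose and 1.93% fell. As a set, the 10 members had a median log2 fold change of 0.95, beside -0.02 over all genes of the table and -0.15 over the genes in that range of mean count.

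**Figure D1:**
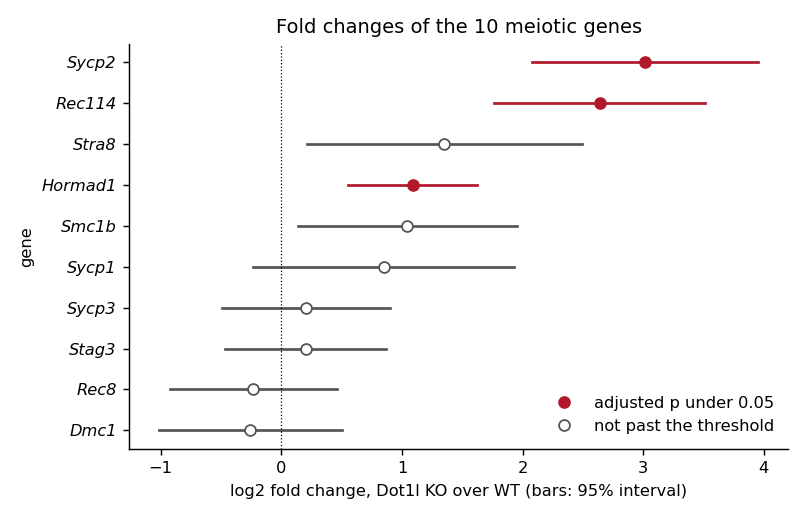
Log2 fold change of each meiotic gene, Dot1l KO over WT (points), with its 95% interval (bars), from the authors' deposited table; filled red points passed an adjusted p of 0.05. Sycp2 at 3.02, Rec114 at 2.64 and Hormad1 at 1.09 are filled, and the intervals of Sycp1, Sycp3, Stag3, Rec8 and Dmc1 cross 0.

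The promoters of the 3 genes that rose, and of Sycp3 and Stag3, which did not pass, are printed because members with and without the same short motifs rose, and others with them did not pass. The sequences run 5′ to 3′ from 250 bases before to 50 bases after the first listed RefSeq start (GRCm38.p6, the assembly of mm10). Capitals mark CACGTG, the E-box that MGA and MAX are known to bind, and TCCCGC or its reverse complement GCGGGA, the core of the known E2F6 site.
Sycp2 promoter, chr2:178407609-178407908, strand -: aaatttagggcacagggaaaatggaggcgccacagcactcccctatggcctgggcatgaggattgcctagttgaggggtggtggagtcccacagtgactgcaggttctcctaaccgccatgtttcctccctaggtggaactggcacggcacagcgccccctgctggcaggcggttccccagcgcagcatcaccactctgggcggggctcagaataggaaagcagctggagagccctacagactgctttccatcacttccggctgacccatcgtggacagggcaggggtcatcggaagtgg
Rec114 promoter, chr9:58741510-58741809, strand -: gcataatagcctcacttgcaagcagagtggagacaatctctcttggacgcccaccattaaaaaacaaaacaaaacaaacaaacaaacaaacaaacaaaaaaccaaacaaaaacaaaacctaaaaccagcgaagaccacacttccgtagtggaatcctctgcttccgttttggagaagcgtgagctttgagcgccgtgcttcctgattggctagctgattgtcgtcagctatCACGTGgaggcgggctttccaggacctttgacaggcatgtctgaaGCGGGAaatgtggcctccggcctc
Hormad1 promoter, chr3:95559427-95559726, strand +: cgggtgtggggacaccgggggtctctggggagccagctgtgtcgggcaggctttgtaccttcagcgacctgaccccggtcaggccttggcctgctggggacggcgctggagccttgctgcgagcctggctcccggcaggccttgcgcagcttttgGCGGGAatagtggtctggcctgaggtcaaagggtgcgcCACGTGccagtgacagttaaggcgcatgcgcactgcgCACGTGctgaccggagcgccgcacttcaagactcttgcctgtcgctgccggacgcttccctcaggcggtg
Sycp3 promoter, chr10:88459337-88459636, strand +: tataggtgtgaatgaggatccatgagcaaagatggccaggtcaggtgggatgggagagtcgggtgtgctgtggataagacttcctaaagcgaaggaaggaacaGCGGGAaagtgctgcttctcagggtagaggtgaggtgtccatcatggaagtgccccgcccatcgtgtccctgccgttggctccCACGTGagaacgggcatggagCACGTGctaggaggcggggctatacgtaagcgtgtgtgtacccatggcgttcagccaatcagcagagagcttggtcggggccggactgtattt
Stag3 promoter, chr5:138280259-138280558, strand +: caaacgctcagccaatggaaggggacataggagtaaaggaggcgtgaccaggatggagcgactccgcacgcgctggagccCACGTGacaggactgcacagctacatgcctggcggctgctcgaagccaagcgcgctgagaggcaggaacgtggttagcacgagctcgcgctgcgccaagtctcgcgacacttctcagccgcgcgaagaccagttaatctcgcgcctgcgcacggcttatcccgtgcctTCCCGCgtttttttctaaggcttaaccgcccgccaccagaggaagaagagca
Both strands were searched in the promoters of all 10 members, and no match overlapped another. CACGTG was present in 5 of 10 members, against 7.24% of 27025 RefSeq promoters of the same length. TCCCGC was present in 8 of 10 members, against 20.02% of those promoters, and both motifs in 5 of 10, against 2.05%. The 5 with both were Sycp1, Sycp3, Hormad1, Stag3 and Rec114, so the set with both motifs holds members that rose and members that did not pass. Hormad1 and Sycp3 each hold CACGTG in 2 places, with first bases 57 and 20 bases before the start in Hormad1 and 64 and 43 bases before it in Sycp3. Sycp2, the member with the largest fold change, and Stra8 held neither motif in this window. Smc1b, Rec8 and Dmc1 held TCCCGC without CACGTG. The members' promoters contained a median of 18 CpG pairs, beside 7 over all promoters, and Sycp2 and Stra8 were lowest with 10 each. Each motif itself contains a CpG pair, and the motif shares were not compared among promoters of like CpG count. The RefSeq starts of Rec114, Stra8 and Stag3 lie 2405, 785 and 269 bases inside the GENCODE gene spans, so these windows miss the outer end of the span and another start may be in use there. A match is a description of the letters and not evidence of binding.

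Among the members of the synaptonemal complex and axis, Sycp2 had the largest log2 fold change. SYCP2 is the axis protein that, with SYCP3, forms the lateral element. Its gene lies on chromosome 2 (178345293 to 178407685, minus strand, GENCODE M21 on GRCm38). The implied level was 356.9 normalized counts in Dot1l KO and 44.1 in WT. The authors' deposited table gives a log2 fold change of 3.02 ± 0.48 (SE) and an adjusted p = 5.33e-08; the mean over both genotypes is 200.5 normalized counts. Sycp2 was the least abundant member over all libraries, and its WT level was the lowest of all. Its 95% interval, 2.08 to 3.95 on the log2 scale, lies above the whole interval of Sycp1, Sycp3, Hormad1, Stag3, Smc1b, Rec8 and Dmc1, and overlaps those of Stra8 and Rec114. These intervals come from the same libraries, and the differences between members were not tested.

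Hormad1 (chromosome 3, 95559677 to 95587671, plus strand) encodes a HORMA domain protein of the unsynapsed axis. Its implied level was 884.3 normalized counts in Dot1l KO and 415.9 in WT. The log2 fold change in the authors' deposited table is 1.09 ± 0.27 (SE), adjusted p = 0.00257, with a 95% interval of 0.55 to 1.63. This is the smallest change among the members that passed, and it carries the smallest SE of all 10. Of its 1773 distinct stretches of 50 bases, 22.9% also occur in annotated transcripts of other genes, 380 of them in Gm15529, so its reads may be shared with that copy.

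Sycp3 (chromosome 10, 88459569 to 88473236, plus strand), the partner of SYCP2 in the lateral element, did not pass. Its implied level was 454.4 normalized counts in Dot1l KO and 394.7 in WT. The authors' deposited table has a log2 fold change of 0.20 ± 0.36 (SE) with adjusted p = 0.866, and the 95% interval of -0.49 to 0.90 leaves room for a rise of up to 1.87-fold. The Sycp3 exons overlap those of Chpt1, a lipid enzyme gene on the opposite strand, over 52.2% of their length. Whether the counting used strand is not stated, so reads of the 2 genes may not be told apart there; Chpt1 is at 0.03 ± 0.39 (log2 fold change) by the authors' deposited table.

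Sycp1 (chromosome 3, 102818499 to 102936100, minus strand), which encodes the transverse filament, had an implied level of 292.5 normalized counts in Dot1l KO and 162.5 in WT. The authors' deposited table has Sycp1 at 0.85 ± 0.55 (SE, log2 fold change) with adjusted p = 0.486. The 95% interval of -0.23 to 1.93 is among the widest of the members and includes both no change and a fold like that of Hormad1.

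The meiotic cohesin subunits, the 3 most abundant members over all libraries, did not pass. Stag3 (chromosome 5, 138280240 to 138312393, plus strand), the meiotic STAG subunit, was the most abundant member, with an implied level of 7271 normalized counts in Dot1l KO and 6323 in WT. The authors' deposited table gives Stag3 a log2 fold change of 0.20 ± 0.34 (SE), adjusted p = 0.857, with a 95% interval of -0.46 to 0.87. Rec8 (chromosome 14, 55618037 to 55625395, plus strand), the meiotic kleisin that closes the cohesin ring, had 924.6 normalized counts in Dot1l KO and 1087 in WT as implied levels. The authors' deposited table has Rec8 at -0.23 ± 0.35 (SE, log2 fold change), adjusted p = 0.837. The 95% interval for Rec8 runs from -0.93 to 0.46.

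Smc1b (chromosome 15, 85064689 to 85131964, minus strand), the meiotic form of SMC1, had an implied level of 1199 normalized counts in Dot1l KO and 581.9 in WT. The authors' deposited table gives 1.04 ± 0.46 (SE, log2 fold change) with p = 0.0245 before and 0.196 after adjustment. The estimate is close to that of Hormad1, which passed, but its SE is larger, and the 95% interval runs from 0.13 to 1.95.

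Of the recombination genes, Rec114 rose and Dmc1 did not pass. Rec114 (chromosome 9, 58652850 to 58743964, minus strand) encodes a partner of MEI4 that is required for the breaks made by SPO11. Its implied level was 645.4 normalized counts in Dot1l KO and 103.6 in WT. The authors' deposited table has a log2 fold change of 2.64 ± 0.45 (SE), adjusted p = 4.66e-07, and the 95% interval is 1.77 to 3.51. The exons at the 3′ end of Rec114 overlap those of Nptn, a cell adhesion gene on the opposite strand, over 26.9% of the exon length of Rec114. Nptn, at a mean of 1955 normalized counts, is at 0.41 ± 0.25 (log2 fold change, adjusted p = 0.447) by the authors' deposited table; the part of shared reads in the Rec114 value was not tested.

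Dmc1 (chromosome 15, 79561497 to 79605109, minus strand) had an implied level of 386.6 normalized counts in Dot1l KO and 461.7 in WT. The log2 fold change in the authors' deposited table is -0.26 ± 0.39 (SE), adjusted p = 0.834. The 95% interval of -1.01 to 0.50 does not reach the estimates of Sycp2, Rec114 or Hormad1.

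Stra8 (chromosome 6, 34920163 to 34939344, plus strand), the retinoic acid responsive gene of meiotic entry, had an implied level of 1199 normalized counts in Dot1l KO and 469.7 in WT. The authors' deposited table gives a log2 fold change of 1.35 ± 0.58 (SE), the third largest among the members. It also carries the largest SE of the 10, and its p in the authors' deposited table is 0.0204 before and 0.178 after adjustment.

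Per kilobase of exon, the order of the levels differed between the genotypes. In Dot1l KO, Stag3 had an implied level of 1268 normalized counts per kb, followed by Stra8 with 665.0, Hormad1 with 511.5 and Rec114 with 505.4. Sycp3 with 359.5, Rec8 with 315.0, Smc1b with 296.3 and Dmc1 with 158.8 normalized counts per kb came next, and Sycp1 with 82.3 and Sycp2 with 59.8 were lowest in Dot1l KO. In WT, Stag3 was again first with 1103 normalized counts per kb, then Rec8 with 370.3, Sycp3 with 312.2, Stra8 with 260.5 and Hormad1 with 240.5. Dmc1 with 189.6, Smc1b with 143.8, Rec114 with 81.2, Sycp1 with 45.7 and Sycp2 with 7.39 normalized counts per kb made up the rest of the WT order. Rec114 was thus level with Hormad1 in Dot1l KO and below Dmc1 and Smc1b in WT. The implied levels carry no error of their own, so neighbours in these orders, such as Hormad1 and Rec114 in Dot1l KO, cannot be ranked. An implied level is above 0 by the way it is computed, so it cannot show whether a gene was detected in each genotype. In bulk RNA, more cells with the transcript and more RNA per cell cannot be told apart.

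**Figure D2:**
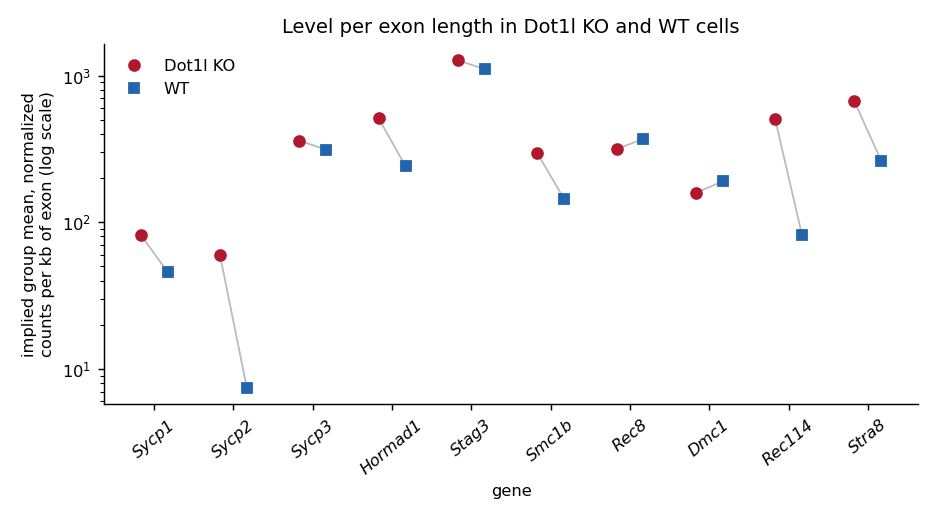
Implied group mean of each meiotic gene in normalized counts per kb of exon (log scale), with Dot1l KO as a red circle to the left of WT as a blue square, joined by a line. The steepest lines belong to Sycp2, with 59.8 in Dot1l KO against 7.39 in WT, and Rec114, with 505.4 against 81.2, while Stag3 is highest in both.

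The members sit in the middle and upper part of the range of mean counts, with a median of 537.3 normalized counts beside 278.3 over all genes. The excess of rising genes in this comparison lies among weakly expressed genes, and the members differ in how they stand to genes of like abundance. All genes were therefore split into 20 bins of mean count, and each member was set beside the others of its bin, as a description. Of 977 other genes in the bin of Rec114, 7 had a larger log2 fold change, and of 978 in that of Sycp2, 10 did. Smc1b, which did not pass, was exceeded by 10 of 978 genes of its bin, Stra8 by 18 of 977 and Hormad1 by 25 of 977. For Stag3 the number was 95 of 977, for Sycp1 124 of 978 and for Sycp3 228 of 978. Rec8, with 572 of 978, and Dmc1, with 603 of 978, lay in the middle of their bins. Centring the fold changes within 20 bins of mean count left 3 members called higher and 0 lower, while the 2 settings named above left 2 higher.

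**Figure D3:**
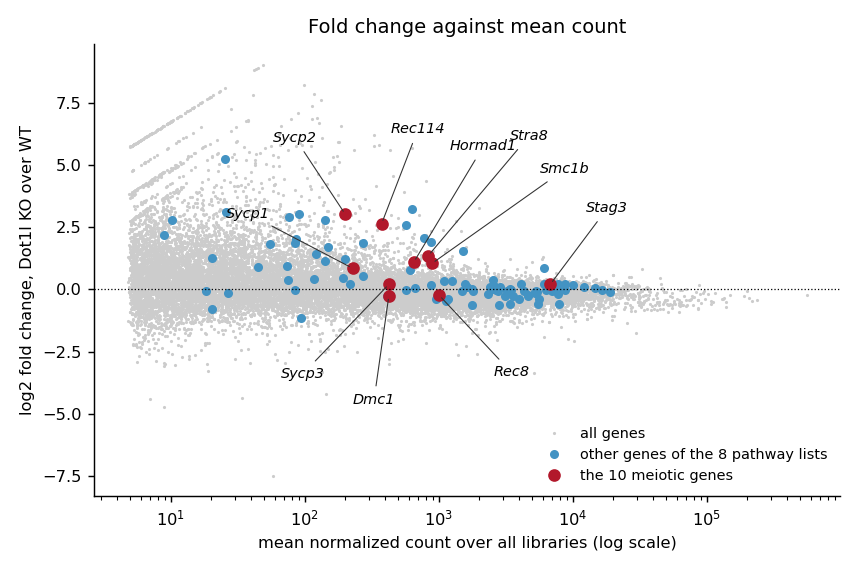
Log2 fold change, Dot1l KO over WT, against the mean normalized count over all libraries (log scale) for all genes (grey), the other genes of the pathway lists (blue) and the 10 meiotic genes (red, named), from the authors' deposited table. Sycp2 and Rec114 lie at the upper edge of the grey cloud at their mean counts of 200.5 and 374.5, and Stag3 at 6797 lies within it.

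Neighbouring genes were compared to see whether whole regions moved with the members. Of the 20 nearest measured neighbours, 1 on each side of each member, 2 were higher and 0 lower (DESeq2), beside the background of 5.34% higher and 1.25% lower. At an unadjusted p under 0.05 there were 6 higher and 0 lower, beside 10.6% higher and 5.55% lower over all genes. The median log2 fold change of the neighbours was 0.21. The 2 that were called lie next to members that did not pass. Mybpc1, a myosin binding protein gene 45.04 kb from Sycp3, is at 1.51 ± 0.43 (log2 fold change, adjusted p = 0.0104) by the authors' deposited table. Pvrig, an immune receptor gene 29.6 kb from Stag3, is at 3.27 ± 0.96 (adjusted p = 0.0142) by the authors' deposited table, at a mean of only 17.2 normalized counts. Of the 6 neighbours of Sycp2, Rec114 and Hormad1, 0 were called; at an unadjusted p under 0.05, 3 were higher (Phactr3, Hcn4 and Ppp1r3d) and 0 lower. The closest to Sycp2 are Ppp1r3d at 1.49 ± 0.76 (adjusted p = 0.305) and Phactr3 at 1.34 ± 0.50 (adjusted p = 0.0880), both log2 fold changes in the authors' deposited table. Golph3l, which begins 1.26 kb beyond Hormad1 on the same strand, is at -0.17 ± 0.27 (log2 fold change, adjusted p = 0.846) by the authors' deposited table. Hcn4, 79.4 kb from Rec114, is at 2.01 ± 0.95 (adjusted p = 0.246) by the authors' deposited table. The other neighbours were Tspan2 and Sike1 of Sycp1, Ctsk of Hormad1, Gpc2 of Stag3, Fam118a and Ribc2 of Smc1b, Irf9 and Ipo4 of Rec8, Ddx17 and Gm27903 of Dmc1, and Wdr91 and Slc23a4 of Stra8. They ranged from -0.41 for Ddx17, beside Dmc1, to 1.96 for Ribc2, beside Smc1b, in the authors' deposited table, and did not pass.

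**Figure D4:**
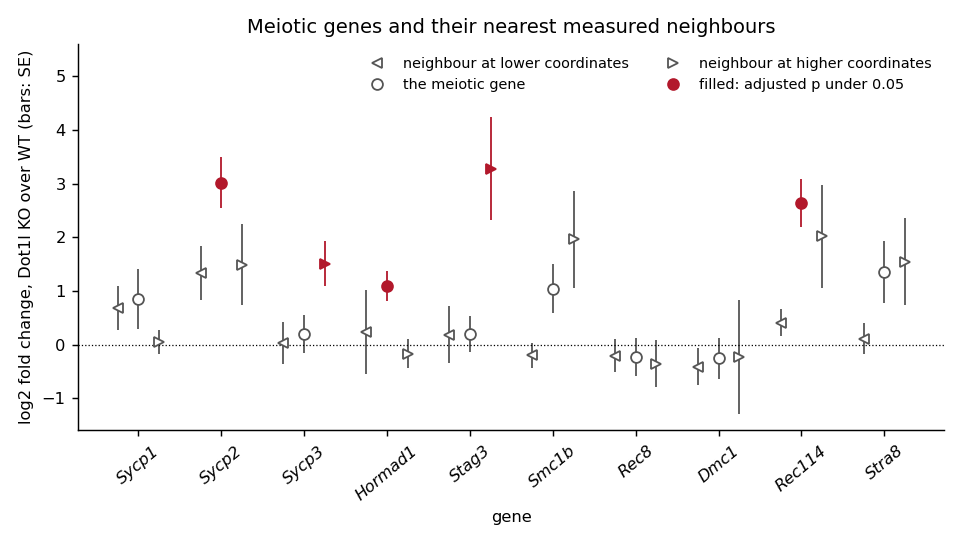
Log2 fold change, Dot1l KO over WT, of each meiotic gene (circle) and of the nearest measured gene at lower (left triangle) and higher (right triangle) coordinates; bars are the SE and filled red symbols passed an adjusted p of 0.05. The filled triangles are Mybpc1 beside Sycp3 at 1.51 and Pvrig beside Stag3 at 3.27, and both neighbours of Sycp2, Rec114 and Hormad1 are open.

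Other genes of meiosis, together with general cohesin genes and repressors of germline genes, were taken from 8 lists. Like the members, the lists were chosen with earlier results of these data known, so their counts beside the background are a description. The lists hold 99 genes and none of the 10 members, and 94 of the 99 had an entry. Of these 94, 18 rose and 0 fell (DESeq2; at an unadjusted p under 0.05, 2 were lower), beside the background of 5.34% higher and 1.25% lower. The count was 9 under Bonferroni adjustment and 12 with scaled Wald statistics, with 0 lower in both. Their median log2 fold change was 0.07. The rises were unevenly spread by abundance: 16 of the 40 genes with a mean count under 1000 were higher, against 2 of the 54 at or above it. Over all genes, 7.61% of those under a mean count of 1000 and 0.435% of the more abundant ones were higher. This limit of 1000 was chosen after the values were seen.

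In the synaptonemal complex and axis list, 4 of 7 genes rose and 0 fell, with a median of 1.82. The background for this count and for those of the lists below is 5.34% higher and 1.25% lower over all genes. Syce1, a central element protein, is at 1.89 ± 0.33 (log2 fold change, adjusted p = 1.89e-06) by the authors' deposited table. Hormad2, the close relative of Hormad1, is at 1.88 ± 0.34 (adjusted p = 2.51e-06) by the authors' deposited table. Tex12, another central element protein, has the largest fold change at 5.24 ± 1.02 (adjusted p = 2.28e-05) by the authors' deposited table, but at a mean of only 25.3 normalized counts. The fourth was 4930447C04Rik, also named Six6os1, a central element gene at 1.13 ± 0.32 (adjusted p = 0.0110) by the authors' deposited table. Syce2 and Trip13, the abundant genes of the list, are at -0.29 ± 0.33 and -0.05 ± 0.33 in the authors' deposited table and did not pass, as Sycp3 did not. Syce3, at 1.82 ± 0.67 (adjusted p = 0.0809) by the authors' deposited table and a mean of 54.8 normalized counts, did not pass either.

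In the list of cohesin subunits and regulators, 14 of 15 genes had an entry, with a median of -0.01. Of these 14, 0 passed in either direction (DESeq2, and also 0 at an unadjusted p under 0.05). Most of them have a mean count above 1000, where 0.435% of all genes were higher. The smallest p-values belonged to Sgo2a, a protector of centromeric cohesin, at -0.45 ± 0.32 with adjusted p = 0.550, and to Pds5a, a cohesin release factor, at 0.22 ± 0.30 (adjusted p = 0.809) by the authors' deposited table. The general subunits that Smc1b, Rec8 and Stag3 replace in meiosis are Smc1a at -0.05 ± 0.24, Rad21 at 0.18 ± 0.31, Stag1 at -0.03 ± 0.30 and Stag2 at 0.01 ± 0.33, as log2 fold changes in the authors' deposited table.

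Break formation genes, the functional partners of Rec114, had 2 rises and 0 falls among 6 measured genes, with a median of 1.25. Ankrd31, which binds REC114, is at 1.70 ± 0.32 (adjusted p = 1.02e-05) by the authors' deposited table. Ccdc36, also named Iho1, a protein that recruits the break machinery to axes marked by HORMAD1, is at 1.23 ± 0.38 (adjusted p = 0.0242) by the authors' deposited table. Mei4, the direct partner of REC114, is at 0.94 ± 0.36 (adjusted p = 0.104) by the authors' deposited table, and did not pass. Nor did Mei1, at 1.86 ± 0.66 (adjusted p = 0.0651) by the authors' deposited table.

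Strand exchange genes, the partners of Dmc1, had 1 rise and 0 falls among 16 measured genes, with a median of -0.13. That count is near the background of 5.34% higher and 1.25% lower. At an unadjusted p under 0.05, 2 were higher and 1 lower, beside 10.6% higher and 5.55% lower over all genes. The rise was Mcmdc2, an MCM-like protein of meiotic repair, at 2.005 ± 0.44 (adjusted p = 0.000334) by the authors' deposited table. Mnd1, which stimulates DMC1, is at -0.65 ± 0.35 (adjusted p = 0.348) by the authors' deposited table.

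Crossover and mismatch factors had 4 rises and 0 falls among 10 genes, with a median of 0.43. Tex11, an X-linked crossover protein, is at 2.60 ± 0.39 (adjusted p = 6.69e-09) by the authors' deposited table. AI481877, also named Shoc1, another crossover factor, is at 2.80 ± 0.45 (adjusted p = 8.33e-08) by the authors' deposited table. The helicase gene Hfm1 at 1.40 ± 0.39 (adjusted p = 0.00926) and the crossover regulator Rnf212 at 3.13 ± 0.72 (adjusted p = 0.000652) complete the set in the authors' deposited table. Of the telomere attachment genes, 2 of 8 rose and 0 fell, with a median of 0.28. These were Terb2 at 3.03 ± 0.54 (adjusted p = 2.75e-06) and Majin at 1.12 ± 0.36 (adjusted p = 0.0353) by the authors' deposited table, which together tether meiotic telomeres to the nuclear envelope.

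Of 12 measured meiotic entry regulators, the list that stands closest to Stra8, 4 rose and 0 fell, with a median of 0.56. Dazl, an RNA-binding protein upstream of Stra8, is at 3.23 ± 0.40 (adjusted p = 4.45e-13) by the authors' deposited table. Gm4969, also named Meiosin, the partner of STRA8, is at 2.89 ± 0.45 (adjusted p = 2.47e-08) by the authors' deposited table. Sohlh2, a factor of early germ cells, is at 2.06 ± 0.45 (adjusted p = 0.000216) and Meioc, which maintains meiotic prophase, at 1.52 ± 0.52 (adjusted p = 0.0492) by the authors' deposited table.

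Of 21 repressors of germline genes, 1 rose and 0 fell, beside 5.34% higher and 1.25% lower over all genes. Most of these repressors, with the 1 that rose, have a mean count above 1000, where 0.435% of all genes were higher. At an unadjusted p under 0.05, 1 was higher and 1 lower, beside 10.6% higher and 5.55% lower over all genes. The median of that list was -0.02. The rise was Dnmt3a, a de novo DNA methyltransferase, at 0.85 ± 0.24 (adjusted p = 0.00822) by the authors' deposited table. For the genes of the PRC1.6 complex named above, the authors' deposited table has E2f6 at 0.17 ± 0.25, Mga at 0.07 ± 0.46, Max at -0.02 ± 0.27, L3mbtl2 at -0.60 ± 0.29 and Pcgf6 at 0.13 ± 0.23 as log2 fold changes. None of these 5 passed.

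**Figure D5:**
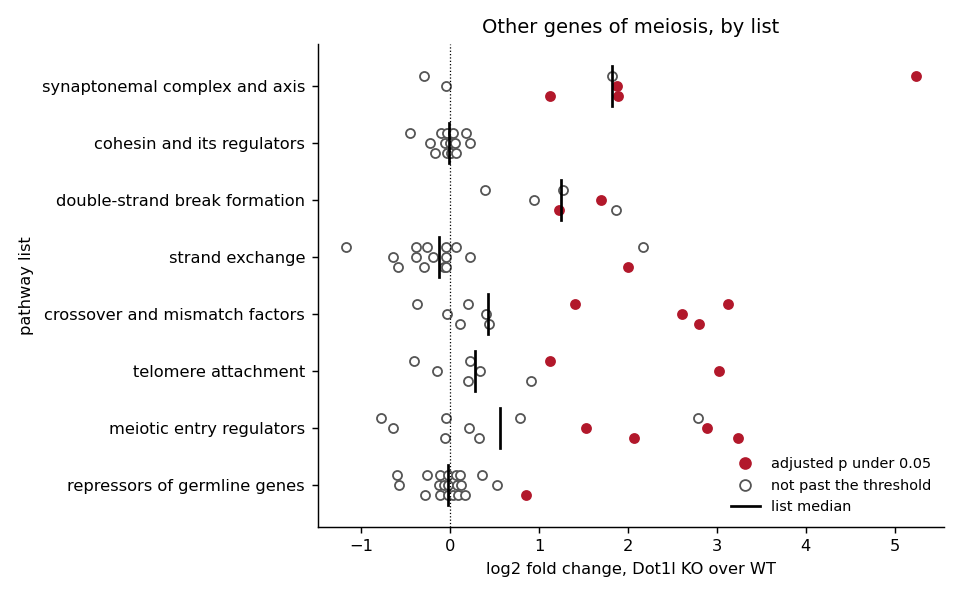
Log2 fold change, Dot1l KO over WT, of each measured gene in the 8 pathway lists (circles; height within a row only separates points), from the authors' deposited table; filled red circles passed an adjusted p of 0.05 and black lines are list medians. Medians run from -0.13 for strand exchange to 1.82 for the synaptonemal complex and axis list, and the filled circles lie above 0.

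Some markers of cells other than embryonic stem cells also passed the threshold, while those of other types did not. The background for the counts below is 5.34% higher and 1.25% lower over all genes. Among genes with a mean count under 1000, 7.61% were higher. Of 6 measured fibroblast markers 5 rose and 0 fell, with implied levels that sum to 2386 normalized counts in Dot1l KO and 1037 in WT. The 5 were Col1a1, Col1a2, Col3a1, Thy1 and Pdgfra, from 1.25 for Thy1 to 4.03 for Col1a2 as log2 fold changes in the authors' deposited table. Of 7 measured spermatocyte markers 3 rose, namely Piwil1 at 2.58 ± 0.46, Tex101 at 3.81 ± 0.48 and Hormad2, in the authors' deposited table. Those spermatocyte markers sum to 1721 normalized counts in Dot1l KO and 670.0 in WT. None of the 8 spermatid markers (Prm1, Prm2, Tnp1, Tnp2, Acrv1, Acr, Spaca1 and Odf1) had an entry to analyse. Of 4 measured oocyte markers 0 were called (DESeq2; at an unadjusted p under 0.05, 1 was higher), and they sum to 376.9 normalized counts in Dot1l KO and 390.9 in WT. Of 7 measured Sertoli cell markers 0 rose and 1 fell, namely Rhox5, an X-linked homeobox gene, at -1.76 ± 0.50 (adjusted p = 0.0118) by the authors' deposited table. The Sertoli cell markers sum to 1091 normalized counts in Dot1l KO and 2878 in WT, but Rhox5 carries that difference. The other 6 sum to 289.8 normalized counts in Dot1l KO and 161.2 in WT, and 1 of them, Gata1, was higher at an unadjusted p under 0.05. The part of any of these cell types in the values of Sycp2, Rec114 and Hormad1 was not tested. Hormad2 and Dazl stand in both a pathway list and a marker list.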

How the data were processed

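RNA from 3 Dot1l KO and 3 WT samples of mouse E14 embryonic stem cells was sequenced. Per the submitters' processing notes, the authors used HISAT2 2.1.0, the mm10 build, featureCounts 2.0.0 and DESeq2, with no statement in these sources of its version, of filters, or of strand and multi-mapping settings. The mean signal is, per the file headers, the average over all libraries of counts divided by size factors. The log2 fold change, its SE and the Wald score, which was checked to equal their quotient, are those the authors deposited. Each p-value is a Wald p that the authors deposited beside its Benjamini-Hochberg adjustment; the adjustment was recomputed with equal results, and 7 genes have no p.

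Group levels were implied from mean and fold change, and 95% intervals are the estimate plus or minus the normal quantile times the SE. Depth per library is unknown, so no counting interval was computed. Exon lengths and positions are from GENCODE M21 (GRCm38), promoters from RefSeq (GRCm38.p6; all 10 members matched). Shared stretches of 50 bases were counted over GENCODE transcripts on both strands. Calls and alternatives were computed with Python 3.11.15 and scipy 1.17.1 and tested on simulated data.

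The members and lists were chosen with earlier results of these data known. Named are all members, Dot1l, each pathway or marker gene past the threshold (of a pathway list where none passed, the 2 with the smallest p) and the nearest measured neighbours; other genes, such as general cohesin subunits and the stem cell markers named, were picked with their values in view. The single TE copies were not used here. Single values of the remaining list genes are left out. Alternatives were a stricter threshold (0.01), a minimum log2 fold change (1), and fold changes centred on the table median or within 20 bins of mean count. The others were scaled Wald statistics, Bonferroni, and a mean count of at least 50. For the scaling, Wald statistics were divided by the ratio of their interquartile range to that of a standard normal distribution.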

Additional observations from a re-analysis of the deposited data

How the results depend on the processing

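No paired analysis was possible because the tables carry no column per sample; for the same reason leaving out replicates and a refit with another tool were not run. Over the 7 alternatives run, Sycp2 and Rec114 stayed called higher under each, and 0 members were lower under any. Hormad1 was no longer past the threshold under Bonferroni adjustment and with Wald statistics scaled by their interquartile range, which leaves 2 members called higher there. The pathway list genes called higher numbered 18 as reported, 9 under Bonferroni, 12 with scaled Wald statistics and 16 when centred within bins of mean count, and 0 were lower under each of the 7. Centring kept the sign of the fold change of each of the 10 members; the lowest sizes were -0.07 for Rec8 and -0.13 for Dmc1. Precision is limited by 3 samples per genotype and by the unknown depth of each library.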

Other observations

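Genes known from primordial germ cells, the precursors in which the meiotic program is first switched on, split in direction. Of 8 measured markers 2 rose and 2 fell, beside 5.34% higher and 1.25% lower over all genes. The implied levels of the 8 markers sum to 6302 normalized counts in Dot1l KO and 6600.3 in WT. Ddx4, a germ cell RNA helicase, is at 1.60 ± 0.37 (log2 fold change, adjusted p = 0.000606), and Dazl was given with Stra8, both in the authors' deposited table. Nanos3, an RNA-binding survival factor, is at -2.53 ± 0.75 with adjusted p = 0.0172, and Dppa3 at -2.17 ± 0.38 (adjusted p = 2.21e-06) by the authors' deposited table. The other 4, Dnd1, Prdm1, Tfap2c and Prdm14, did not pass, with log2 fold changes from -0.73 for Prdm1 to 0.35 for Prdm14 in the authors' deposited table.

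The motifs shared by members were also counted over all tested genes with a RefSeq promoter, 12883 in number. Of the 480 genes with both CACGTG and TCCCGC, 5.63% were higher and 0.833% lower in Dot1l KO, beside 6.10% higher and 1.32% lower among the 7741 genes with neither. Of the genes with TCCCGC alone 3.87% were higher, and of those with CACGTG alone 5.70%.

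SYCP3 and the Xlr proteins are known relatives, but the transcripts of Sycp3 and of the Xlr genes shared 0 stretches of 50 bases. The 564 stretches that Sycp3 shares with another gene are those of the overlapping gene Chpt1.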
